A study of Mus musculus with 12 samples.

Results

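The clustered protocadherins are the genes of 3 neighbouring arrays, Pcdha, Pcdhb and Pcdhg, and here they are every row of the expression table whose symbol begins with one of these names. The rule rests on the symbol alone. The rule took 58 of the 24946 genes in the table, of which 14 were Pcdha, 22 Pcdhb and 22 Pcdhg genes. In the mouse assembly GRCm38.p6 all of them lie on chromosome 18, with the Pcdha genes from 36930285 to 37188897, the Pcdhb genes from 37264998 to 37521419 and the Pcdhg genes from 37661775 to 37841873. RNA was sequenced from structures grown from mouse embryonic stem cells, labelled E14TG2a of the 129/ola strain in every library. Embryoids were made at day 3 (D3) by joining an aggregate of 50 cells, exposed to the morphogen BMP4 for 8 h at 10 ng/ml according to the labels, to an unexposed aggregate of 100 cells. Controls were made on the same day by joining an aggregate of 50 cells and one of 100 cells, both unexposed. The 4 groups were D8 embryoids, D7 embryoids, D8 controls and D7 controls, with 3 libraries each, and the labels give pools of 12 structures per library. The methods give a higher concentration of BMP4 and a smaller pool than the labels do, and which was used could not be settled from the files.

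Clustered protocadherins are adhesion proteins of the cell surface with 6 extracellular cadherin repeats, best known from neurons. In the Pcdha and Pcdhg arrays each variable exon has its own promoter and is spliced to constant exons shared by the whole array, whereas each Pcdhb gene is a single exon. A neuron uses a few of the alternate promoters, chosen with the help of the DNA-binding protein CTCF and of cohesin, so that cells carry different combinations of isoforms on their surface. These combinations let a neurite recognise and avoid other neurites of its own cell. The 5 C-type genes, Pcdhac1, Pcdhac2, Pcdhgc3, Pcdhgc4 and Pcdhgc5, lie at the ends of the Pcdha and Pcdhg arrays and are regulated apart from the alternate isoforms.

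The deposited values are whole numbers. Library totals ran from 997897 to 998433, and the values were taken as TPM, a length-scaled measure of transcript abundance, rounded by the authors. They are relative to gene length, so levels of different genes are on 1 scale, but a value carries a rounding error of up to 0.5 and the read depth is unknown. Hprt, which encodes a purine salvage enzyme and is deleted in E14TG2a cells, had values of 0 to 1 in the 6 embryoid libraries and 32 to 36 in the 6 libraries labelled control. The library names begin with E14 for the embryoids and WT for the controls, so a difference of cell line or clone cannot be told apart from that of BMP4 exposure in any comparison of embryoids with controls. Replicate 2 of the D7 embryoids stood apart in scale, with a size factor of 0.822 against 0.943 to 1.11 in the other 11 libraries, and it had the lowest summed protocadherin value of all 12. Between 38.0 and 54.9% of the exon bases of the Pcdha genes and 27.8 to 66.8% of those of the Pcdhg genes were shared with another clustered protocadherin. Only 2 of the 22 Pcdhb genes shared any. Any overlap of annotated exons was counted, on constant exons or elsewhere: Pcdhga4, the highest, had 3157 shared bases, and Pcdhgc3 had 2119. The assignment of reads on shared exons and the use of strand are not given in the sources used, so the values of single Pcdha and Pcdhg isoforms, and of near-identical Pcdhb genes, are uncertain.

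Pcdhgc3 stood far above every other clustered protocadherin in all 4 groups, and the Pcdha isoforms were at the low end. Pcdhgc3, a broadly expressed C-type isoform that shapes dendrite branching in the mouse cortex, had values of 99, 111 and 106 in D8 embryoids, 108, 82 and 114 in D7 embryoids, 137, 135 and 139 in D8 controls, and 114, 125 and 121 in D7 controls. It alone made up 41.2 to 42.9% of the summed protocadherin value in D8 embryoids, 44.8 to 48.5% in D7 embryoids, 28.8 to 29.8% in D8 controls and 35.0 to 36.0% in D7 controls. The median of the 58 group means was 1.83 in D8 embryoids, 1.00 in D7 embryoids, 5.00 in D8 controls and 2.67 in D7 controls, so most of these genes were within a few rounding steps of 0. Pcdha1, Pcdha6, Pcdha7, Pcdha8, Pcdhb1 and Pcdhb13 were listed at 0 in all 12 libraries. Between 43 and 45 of the 58 genes were above 0 in a D8 embryoid library, 38 to 41 in a D7 embryoid library, 50 to 52 in a D8 control library and 45 to 48 in a D7 control library.

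The summed values separated the embryoids from the controls on both days and in all 3 arrays. The 22 Pcdhb genes summed to 44, 41 and 44 in D8 embryoids, 31, 23 and 33 in D7 embryoids, 137, 129 and 132 in D8 controls, and 68, 74 and 77 in D7 controls. D8 embryoids thus averaged 43.0 ± 1.73 and D8 controls 133 ± 4.04 (SD, n = 3 each), a ratio of 0.324, and the ratio at D7 was 0.397. The 14 Pcdha genes summed to 6 to 7 in D8 embryoids, 3 to 5 in D7 embryoids, 21 to 24 in D8 controls and 14 to 15 in D7 controls. Their ratio was 0.299 at D8 and 0.25 at D7, so unlike those of Pcdhb and Pcdhg it was lower at D7. Without the C-type gene Pcdhac2, the sum of the other 13 was 1 to 3 in D8 embryoids, 0 to 1 in D7 embryoids, 14 to 17 in D8 controls and 4 to 6 in D7 controls. The ratios were then 0.130 at D8 and 0.0625 at D7, and rounding makes both coarse. The 22 Pcdhg genes summed to 202 ± 12.3 in D8 embryoids against 311 ± 6.81 in D8 controls, a ratio of 0.650, and to 186 ± 24.8 in D7 embryoids and 250 ± 14.6 in D7 controls, a ratio of 0.742 (SD, n = 3 each). The embryoid and control sums of a day did not overlap in any of the 3 arrays.

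**Figure D1:**
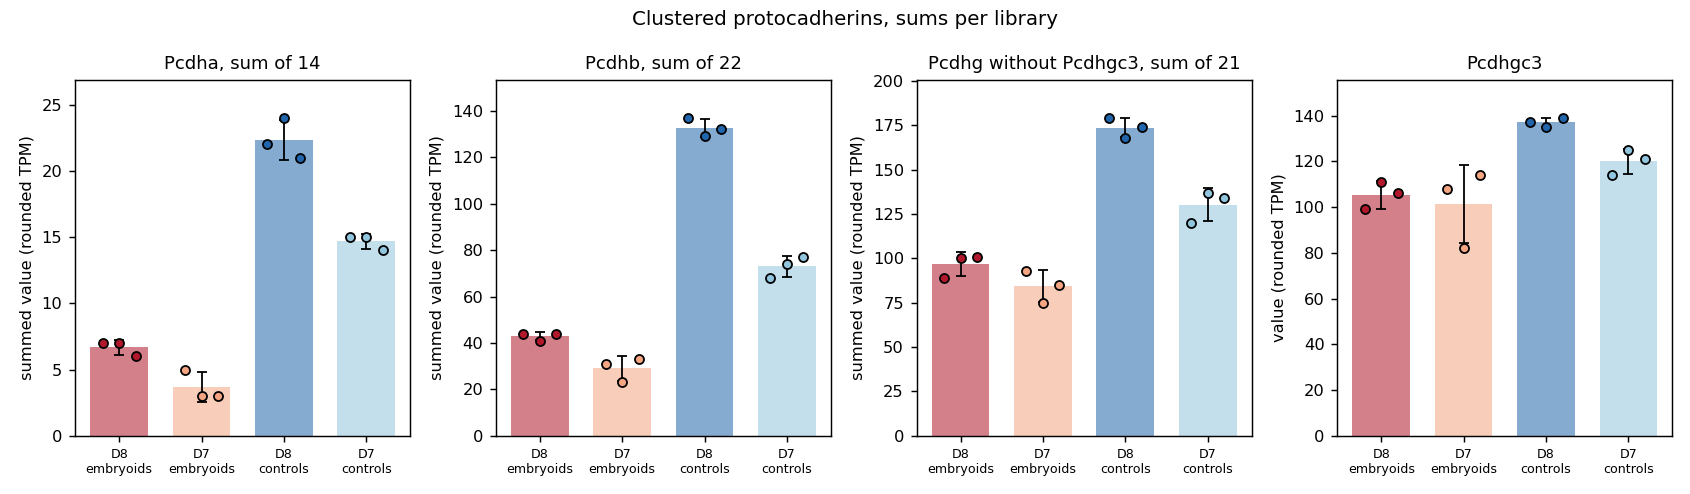
Summed values of the Pcdha genes, the Pcdhb genes and the Pcdhg genes without Pcdhgc3, and the value of Pcdhgc3, in rounded TPM on a linear axis, for D8 embryoids, D7 embryoids, D8 controls and D7 controls. Points are libraries, bars are means and error bars are SDs (n = 3); the Pcdhb sums lie at 41 to 44 in D8 embryoids and at 129 to 137 in D8 controls.

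Single genes were compared with limma on log2(value + 1), in which fold changes of low genes are understated, and a gene was called when its Benjamini-Hochberg adjusted p over all genes was under 0.05 and its log2 fold change was above 1 or below -1. Testing was limited to genes whose mean exceeded 1 in some group, of which there were 13751, among them 46 of the 58 clustered protocadherins (5 of 14 Pcdha, 20 of 22 Pcdhb and 21 of 22 Pcdhg). Besides the 6 genes listed at 0, the filter left out Pcdha4, Pcdha5, Pcdha9, Pcdha10, Pcdhac1 and Pcdhga12, none of which was above 1 in any library. A gene that passed only through the controls was bound to be higher there on any day when its control mean exceeded 1. The counts below are therefore of the genes that passed and not of all 58. Since 23 of the 58 genes had 1 whole number above 0 in all 3 D8 control libraries, the spread between replicates was often smaller than the rounding step.

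At D8, embryoids were compared with controls, groups that differ in BMP4 exposure and may differ in cell line or clone. Clustered protocadherins were lower in the embryoids. Of the 46 tested, 22 were called lower and 0 higher, while over all 13751 genes 9.61% were called lower and 10.2% higher. The filter was passed through the controls alone, with a mean of 1 or less in embryoids of both days, by 14 of the 46, and 8 of the 22 called genes were among them. Over all 687 genes that passed this way 46.4% were called lower. Of the other 32 members 14 were called lower, where 7.68% of the other 13064 genes were. The called genes were 3 of 5 Pcdha (Pcdha3, Pcdha11 and Pcdha12), 16 of 20 Pcdhb, and 3 of 21 Pcdhg (Pcdhgc4, Pcdhgb5 and Pcdhgb8). The median log2 fold change of the 46 was -1, against -0.18 over all genes, with medians of -1.25 for Pcdha, -1.11 for Pcdhb and -0.58 for Pcdhg. By adjusted p alone, 42 of the 46 were lower and 0 higher, where 44.4% of all genes were lower and 23.9% higher. The embryoid libraries were all below the control libraries for 41 of the 46, against 48.3% of all genes.

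Pcdhgc4, a C-type isoform on which the survival of some mouse interneurons depends, had the largest log2 fold change of the 46 on the log2(value + 1) scale. It was at 5, 4 and 5 in D8 embryoids against 26, 24 and 28 in D8 controls (log2 fold change -2.25, SE 0.10, limma adjusted p 6.6e-09). The embryoid mean was 0.179 of the control mean, and no embryoid library came near a control library. The order depends on the scale. By the ratio of the means, which rounding makes coarse at these levels, Pcdha12 (0.133), Pcdhb7 (0.143), Pcdha3 (0.167) and Pcdhb10 (0.167) were lower than Pcdhgc4, and Pcdha11 and Pcdhb9 were listed at 0 in D8 embryoids.

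Among the Pcdhb genes, whose proteins lack the shared cytoplasmic domain of the other arrays, the largest differences on the log2(value + 1) scale were those of Pcdhb7, Pcdhb6 and Pcdhb10. Pcdhb7 was at 1 in each D8 embryoid library and 7 in each D8 control library (log2 fold change -2.00, SE 0.11, limma adjusted p 2.3e-08). Pcdhb6 was at 2 in each D8 embryoid library and 10 in each D8 control library (-1.87, SE 0.11), and Pcdhb10 was at 1 in each D8 embryoid library and 6 in each D8 control library (-1.81, SE 0.10). Within these 3 genes no replicate differed from the others of its group, so the rounding step, not the spread, limits how well the difference is known. Pcdhb20 was at 3 in each D8 embryoid library and 11 in each D8 control library, and Pcdhb11 at 4, 3 and 3 in D8 embryoids and 11 in each D8 control library. Pcdhb17 was at 3 in each D8 embryoid library and at 11, 10 and 10 in the D8 controls, and Pcdhb2 at 4, 3 and 3 in D8 embryoids and 9, 10 and 11 in D8 controls. All 4 of these were called, with log2 fold changes of -1.58, -1.48, -1.50 and -1.35 for Pcdhb20, Pcdhb11, Pcdhb17 and Pcdhb2. Pcdhb9 was listed at 0 in the 3 D8 embryoid libraries and at 2 in the 3 D8 control libraries, and Pcdhb3 at 1 and at 5 in the same groups, and both were called lower.

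Pcdhb22, the last gene of the array, had the highest values of the Pcdhb genes in every group. It was at 8, 9 and 10 in D8 embryoids against 18, 17 and 16 in D8 controls (log2 fold change -0.85, SE 0.09, limma adjusted p 4.2e-06), a difference past the adjusted p but short of the fold. Pcdhb4 and Pcdhb15, at 1 in each D8 embryoid library and 3 in each D8 control library, reached a log2 fold change of exactly -1, which was not called. Pcdhb14 was at 1 in each D8 embryoid library and at 1, 2 and 1 in D8 controls (limma adjusted p 0.52). The remaining 7 called Pcdhb genes, Pcdhb5, Pcdhb8, Pcdhb12, Pcdhb16, Pcdhb18, Pcdhb19 and Pcdhb21, had log2 fold changes between -1.11 and -1.02.

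Pcdha11 and Pcdha12, the last alternate isoforms before the C-type genes of their array, were the Pcdha genes with the largest differences. Pcdha12 was at 1, 0 and 1 in D8 embryoids and 5 in each D8 control library (log2 fold change -1.92, SE 0.30, limma adjusted p 0.00014). Pcdha11 was listed at 0 in each D8 embryoid library and at 3 in each D8 control library, and was called lower, with no fold given against values of 0. Pcdha3 was at 1, 0 and 0 in D8 embryoids and 2 in each D8 control library (-1.25, SE 0.23).

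The gamma A and gamma B isoforms, the alternates of the Pcdhg array, had smaller differences. All 11 gamma A genes tested had negative log2 fold changes, from -0.85 for Pcdhga10 to -0.28 for Pcdhga1, and none was called. Among the 7 gamma B genes, Pcdhgb5 was at 3, 4 and 4 in D8 embryoids against 10, 8 and 8 in D8 controls (-1.05, SE 0.14), and Pcdhgb8, annotated as a transcribed pseudogene, was at 4, 3 and 4 in D8 embryoids against 9, 9 and 8 in D8 controls (-1.06, SE 0.17). Pcdhgb1 was at 2 in each of these 6 libraries, the only one of the 46 without a negative log2 fold change. Of the highest gamma isoforms after Pcdhgc3 and Pcdhgc4, Pcdhga11 was at 9, 9 and 10 in D8 embryoids and 16, 16 and 14 in D8 controls (-0.66, SE 0.09), and Pcdhga7 at 9, 12 and 13 in D8 embryoids and 14, 15 and 13 in D8 controls, where the groups met (limma adjusted p 0.069).

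**Figure D2:**
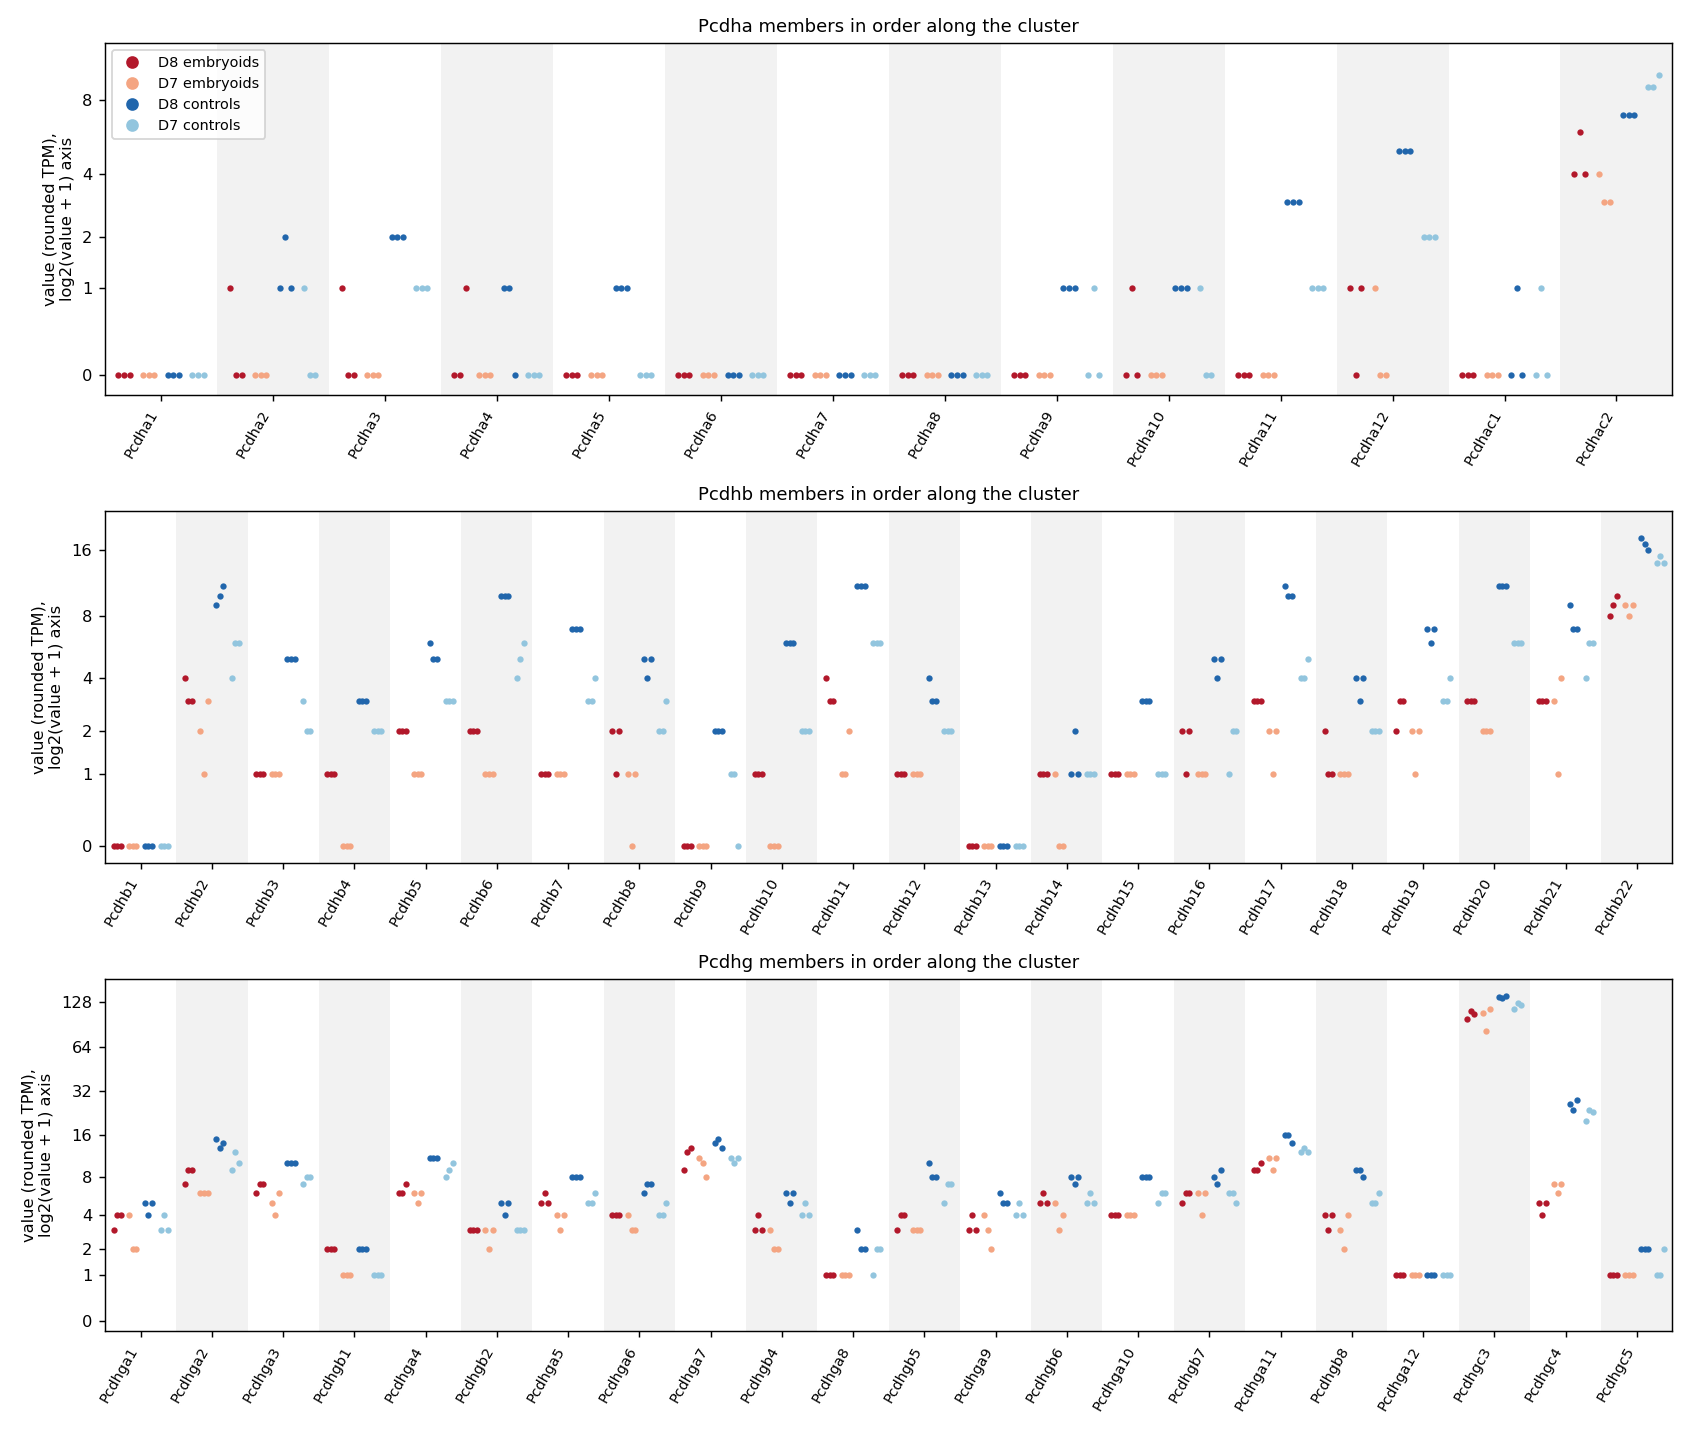
Value of each of the 58 genes in each library, in order along the Pcdha, Pcdhb and Pcdhg arrays, on a log2(value + 1) axis labelled in rounded TPM, with D8 embryoids, D7 embryoids, D8 controls and D7 controls side by side. Each point is a library; Pcdhgc3 lies at 82 to 139, and the D8 control points of Pcdhb7 at 7 stand above its embryoid points at 1.

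The count at D8 depended on how low values were treated. A pseudocount of 5 left only Pcdhb6 and Pcdhgc4 called, with 4.81% of all genes lower. With every value moved by 0.5 toward no difference 11 were called, with 6.85% of all genes lower. Median-of-ratios scaling, which moved the median of all genes to 0.02, left 13 called, none of them higher, with 7.26% of all genes lower and 11.7% higher, and gave 45 negative log2 fold changes and 1 positive one.

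At D7 the same comparison called 12 of the 46 lower and 0 higher, while 8.33% of all genes were called lower and 7.56% higher. Of the 14 members that passed the filter through the controls alone 4 were called, against 30.3% of the 687 such genes, and of the other 32 members 8 were, against 7.17% of the other genes. The called genes were Pcdha12, Pcdhac2, Pcdhgc4 and 9 of the 20 Pcdhb genes (Pcdhb2, Pcdhb4, Pcdhb6, Pcdhb7, Pcdhb8, Pcdhb10, Pcdhb11, Pcdhb17 and Pcdhb20). The median log2 fold change of the 46 was -0.67, against -0.19 over all genes, with medians of -1 for Pcdha, -0.94 for Pcdhb and -0.39 for Pcdhg. Embryoid libraries lay below all control libraries for 29 of the 46, against 42% of all genes. By adjusted p alone 36 were lower and 0 higher, where 44.8% of all genes were lower and 20.4% higher.

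Pcdhgc4 was at 7, 6 and 7 in D7 embryoids against 20, 24 and 23 in D7 controls (log2 fold change -1.60, SE 0.10, limma adjusted p 1.3e-07). Pcdhb11 was at 1, 1 and 2 in D7 embryoids and 6 in each D7 control library (-1.61, SE 0.15), and Pcdhb6 at 1 in each D7 embryoid library against 4, 5 and 6 in D7 controls (-1.57, SE 0.11). The embryoid and control libraries of these 3 genes did not overlap. Pcdhb10 and Pcdhb4 were listed at 0 in the 3 D7 embryoid libraries and at 2 in the 3 D7 control libraries, so no fold is given. Pcdhb20 was at 2 in each D7 embryoid library and 6 in each D7 control library (-1.22, SE 0.07), and Pcdhb7 at 1 in each D7 embryoid library and 3, 3 and 4 in D7 controls (-1.11, SE 0.11). Pcdhb22 was at 9, 8 and 9 in D7 embryoids and 14, 15 and 14 in D7 controls (-0.67, SE 0.09), which again missed the fold. With a pseudocount of 5 only Pcdhgc4 was called, with 4.01% of all genes lower, and with values moved by 0.5 toward no difference 4 members were, with 5.77% of all genes lower. Without replicate 2 of the D7 embryoids, the library that stood apart in scale, 9 members were called, with 7.33% of all genes lower. Leaving out replicate 3 of the D7 controls also left 9, with 7.96% of all genes lower.

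**Figure D3:**
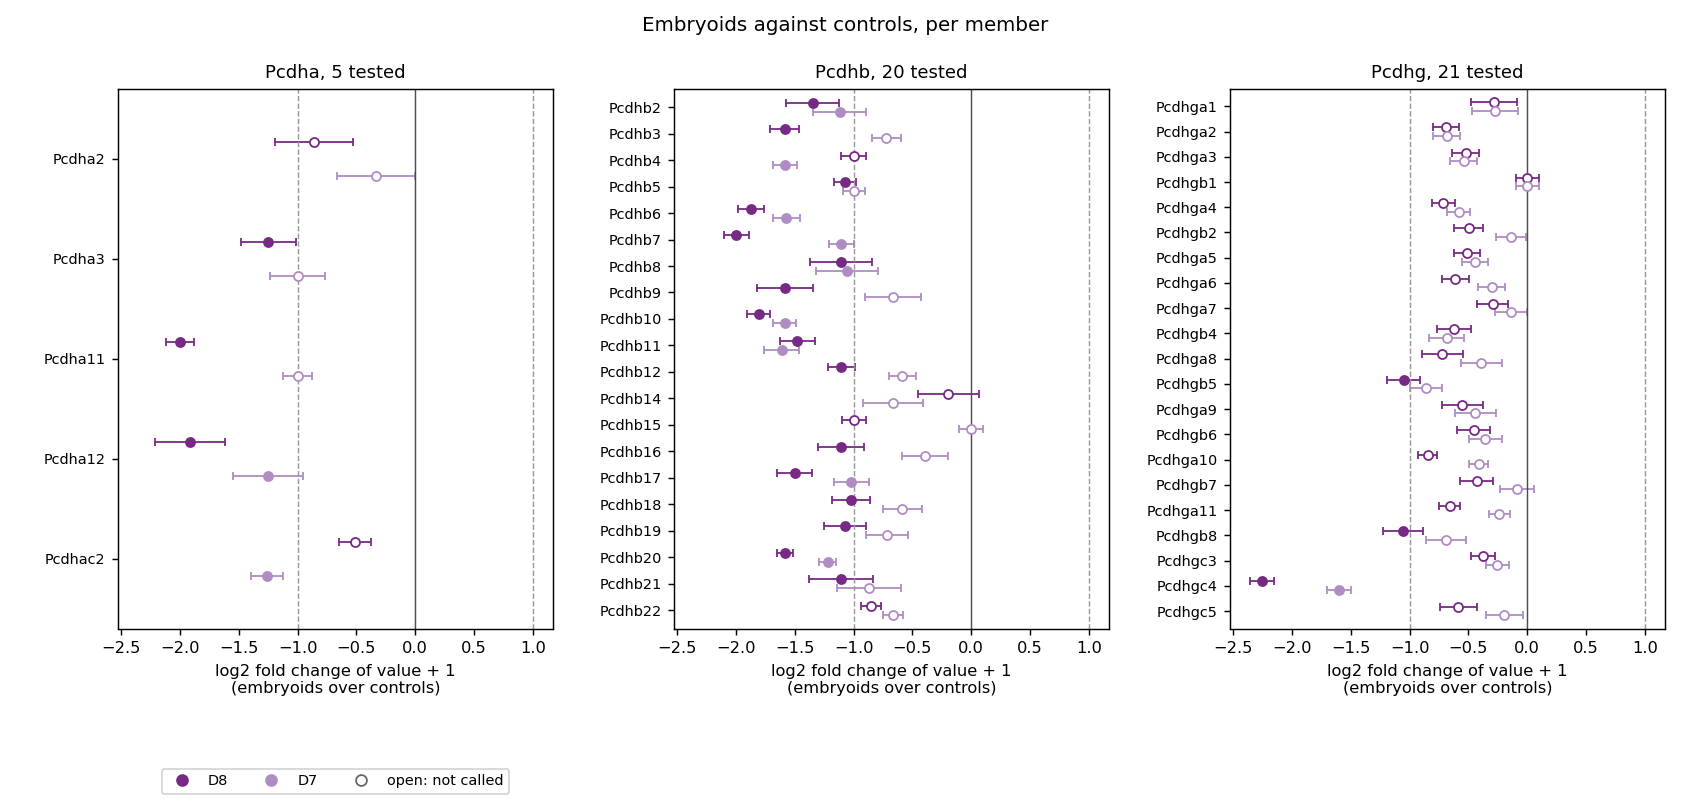
Log2 fold change of value + 1, embryoids over controls, for each of the 46 genes tested, at D8 and D7, with standard errors from limma. Filled points were called and open points were not; dashed lines mark -1 and 1, and the lowest point is Pcdhgc4 at D8, at -2.25.

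The C-type genes ranged from values of 0 to 139. Pcdhac2, which mouse serotonergic neurons need to spread their axons evenly, was at 4, 6 and 4 in D8 embryoids, 4, 3 and 3 in D7 embryoids, 7 in each D8 control library, and 9, 9 and 10 in D7 controls. It was called lower in embryoids at D7 (log2 fold change -1.26, SE 0.14, limma adjusted p 9.3e-06), and at D8 it passed the adjusted p but not the fold (-0.52, SE 0.14, limma adjusted p 0.0054). The difference of the 2 values was itself past the adjusted p (0.74, SE 0.19, limma adjusted p 0.036) but not past the fold. Pcdhgc3 was lower in embryoids by less than the fold at D8 (-0.38, SE 0.10, limma adjusted p 0.0052) and at D7 (-0.25, SE 0.10, limma adjusted p 0.040), and at D7 the highest embryoid library reached the lowest control library. Pcdhgc5 was at 1 in each embryoid library of both days, 2 in each D8 control library and 1, 1 and 2 in D7 controls. Pcdhac1 was at 0 in every library but 1 of the D8 controls and 1 of the D7 controls, where it was at 1.

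**Figure D4:**
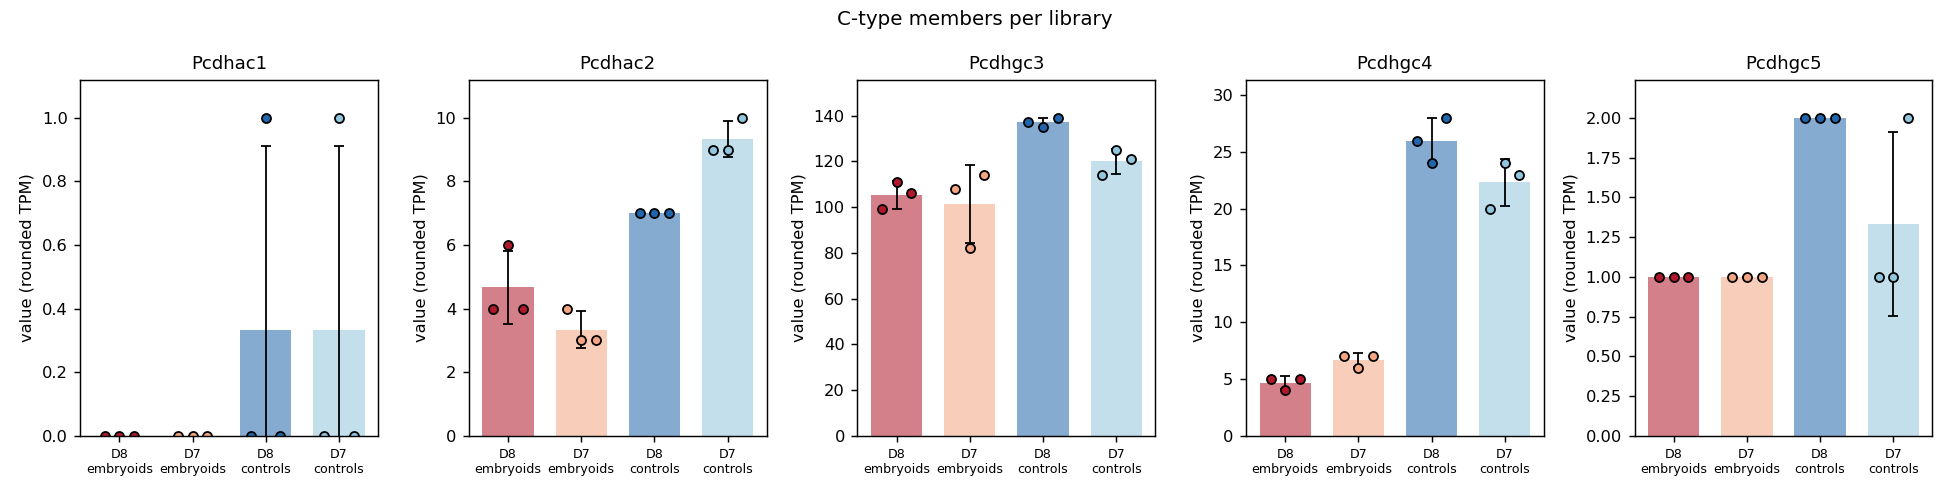
Values of the 5 C-type genes in each library, in rounded TPM on linear axes that differ between panels, for D8 embryoids, D7 embryoids, D8 controls and D7 controls. Points are libraries, bars are means and error bars are SDs (n = 3); Pcdhgc4 lies at 4 to 5 in D8 embryoids and 24 to 28 in D8 controls.

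The comparison of D8 with D7 asked how these genes moved over the last day of culture. In embryoids 0 of the 46 were called, with 2.53% of all genes called higher and 0.131% lower, and 19 of the 46 had an unadjusted limma p under 0.05, as had 34% of all genes. By adjusted p alone 11 were higher and 1 lower, where 16.1% of all genes were higher and 4.52% lower. Pcdhb11 was at 4, 3 and 3 in D8 embryoids and 1, 1 and 2 in D7 embryoids (log2 fold change 0.91, SE 0.15, limma adjusted p 0.0019). Pcdhb4 and Pcdhb10 were at 1 in each D8 embryoid library and listed at 0 in each D7 embryoid library. The one lower gene was Pcdhgc4, at 5, 4 and 5 in D8 embryoids and 7, 6 and 7 in D7 embryoids (-0.44, SE 0.10, limma adjusted p 0.011).

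In controls 3 of the 46 were called higher at D8 and 0 lower, with 2.53% of all genes called higher and 0.204% lower. Pcdhb10 was at 6 in each D8 control library and 2 in each D7 control library (log2 fold change 1.22, SE 0.10, limma adjusted p 1.2e-05), Pcdhb16 at 5, 4 and 5 in D8 controls and 1, 2 and 2 in D7 controls (1.11, SE 0.20), and Pcdhb17 at 11, 10 and 10 in D8 controls and 4, 4 and 5 in D7 controls (1.09, SE 0.15). The D8 and D7 values did not overlap for any of these 3. By adjusted p alone 29 were higher and 0 lower, against 17.4% of all genes higher and 8.03% lower, and for 37 of the 46 all D8 libraries lay above all D7 libraries, against 30.6% of all genes. The median log2 fold change of the 46 was 0.29 in embryoids, beside 0.09 over all genes, and 0.52 in controls, beside 0.04 over all genes. Pcdhac2 alone had a negative log2 fold change between the days in controls, at 7 in each D8 control library and 9, 9 and 10 in D7 controls (-0.37, SE 0.14, limma adjusted p 0.071). With quantile scaling, with a pseudocount of 5 or with values moved by 0.5 toward no difference, 0 of the 46 were called in controls. The shares of all genes called higher were then 1.81%, 0.902% and 1.42%. In embryoids the signs themselves turned on the scaling. Of the 46, 35 were positive and 2 negative as deposited, 33 and 11 with median-of-ratios scaling, and 24 and 19 with quantile scaling. As deposited, 8960 of all 13751 genes were positive and 3991 negative. The median of all genes moved too, from 0.09 as deposited to 0.02 with median-of-ratios scaling and -0.04 with quantile scaling.

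**Figure D5:**
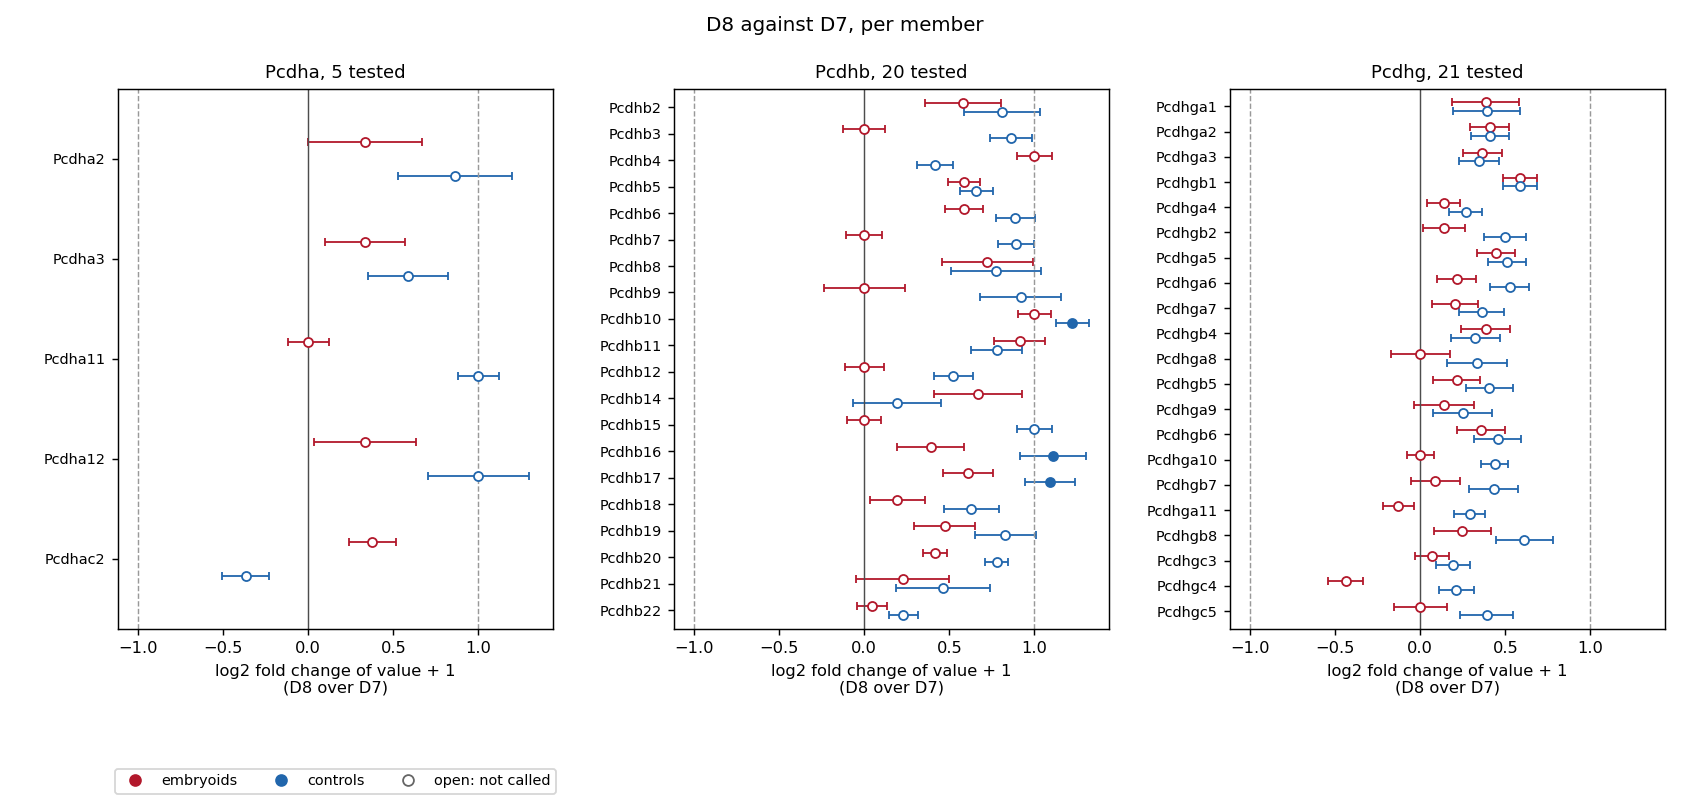
Log2 fold change of value + 1, D8 over D7, for each of the 46 genes tested, in embryoids and in controls, with standard errors from limma. Filled points were called and open points were not; dashed lines mark -1 and 1, and the 3 filled points are Pcdhb10 at 1.22, Pcdhb16 at 1.11 and Pcdhb17 at 1.09, in controls.

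The change of the embryoid against control difference between the days, tested in the same fit, called 0 of the 46, with 1.61% of all genes called higher and 0.894% lower, and 14 of the 46 had an unadjusted limma p under 0.05, as had 23.5% of all genes. The median of the 46 was -0.28, against 0.02 over all genes. Of the 46, 39 were negative and 6 positive, where 6234 of all 13751 genes were negative and 7270 positive. With a pseudocount of 0.5, 34 were negative and 11 positive, so the signs depend in part on how low values are treated. For Pcdha the median was -0.53, while the ratio of the sums moved the other way, from 0.25 at D7 to 0.299 at D8. By adjusted p alone 7 were lower and 2 higher, where 3.71% of all genes were lower and 5.37% higher. Pcdhb15 had the smallest p of these, with 1 in each embryoid library of both days, 3 in each D8 control library and 1 in each D7 control library (-1, SE 0.14, limma adjusted p 0.0021).

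Genes that act on clustered protocadherin promoters were not called. Of 22 such genes, among them those for CTCF, cohesin, DNA methyltransferases and the silencers Smchd1 and Setdb1, 21 were tested and 0 were called by limma at D8 or at D7. An unadjusted limma p under 0.05 was found for 6 of the 21 at D8, against 70.8% of all genes, and for 7 at D7, against 68.1% of all genes. Ctcf, picked after its values were seen, was at 121, 119 and 122 in D8 embryoids and 129, 127 and 123 in D8 controls (log2 fold change -0.07, SE 0.07, limma adjusted p 0.40). Smc1a and Rad21, both encoding subunits of cohesin, had log2 fold changes at D8 of 0.01 and -0.11 and were not called. Among 18 genes for proteins that work with the protocadherin cytoplasmic tails, at D8 as at D7 1 was lower, 1 higher and 16 not called. Over all genes 9.61% were called lower and 10.2% higher at D8, and 8.33% and 7.56% at D7. Cyfip2, which encodes a subunit of the WAVE complex that controls actin, was at 20, 14 and 16 in D8 embryoids and 52, 49 and 51 in D8 controls (-1.56, SE 0.16). Ret, encoding a receptor tyrosine kinase, was at 2, 3 and 3 in D8 embryoids and 1, 0 and 1 in D8 controls (1.19, SE 0.25). Brk1 and Rac1, the highest of the genes not called, had log2 fold changes of 0.06 and -0.11.

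Against the controls, protocadherins outside the arrays were called in both directions in embryoids, and large cadherins only lower. Of all genes 9.61% were called lower and 10.2% higher at D8. Of 12 protocadherins outside the arrays 9 were tested, and at D8 3 were lower, 2 higher and 4 not called. Pcdh10, a protocadherin of developing neural tissue, was at 2 in each D8 embryoid library and 13, 13 and 14 in D8 controls (log2 fold change -2.26, SE 0.09, limma adjusted p 2.1e-09), and Pcdh9 and Pcdh19 were also lower (-1.73 and -1.11). Pcdh12, a protocadherin of endothelial cells, was at 8, 8 and 7 in D8 embryoids and listed at 0 in each D8 control library, and Pcdh7 was higher by less (1.24, SE 0.19). At D7 4 of the 9 were lower and 2 higher, beside 8.33% and 7.56% of all genes. Of 9 seven-pass and large cadherins 7 were tested, and at D8 3 were lower and 0 higher. Celsr3, which guides axons, was at 2 in each D8 embryoid library and 11, 9 and 10 in D8 controls (-1.87, SE 0.11), and Celsr2 and Fat1 were lower too (-1.63 and -1.03).

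Markers of cell types differed between the same groups, and in bulk RNA fewer cells of a type and less RNA per cell cannot be told apart. For the D8 counts below, 9.61% of all genes were called lower in embryoids and 10.2% higher. Of 15 neuronal genes 13 were lower in D8 embryoids and 0 higher, and their sum was 493 to 901 in D8 embryoids, 266 to 407 in D7 embryoids, 2750 to 2909 in D8 controls and 1208 to 1292 in D7 controls. None of the 15 was at 0 throughout a group but 1 in D7 embryoids, Syt1. Map2, a microtubule protein of dendrites, was at 20, 10 and 16 in D8 embryoids and 141, 126 and 136 in D8 controls (log2 fold change -3.10, SE 0.28), and Dcx, a microtubule protein of migrating young neurons, had a log2 fold change of -2.86. From D7 to D8, 11 of the 15 neuronal genes were called higher in embryoids and 13 in controls. Over all genes 2.53% were called higher in each. Of the 46 clustered protocadherins 0 and 3 were called higher, and by adjusted p alone 11 and 29 were. Most of these had low values, where log2(value + 1) understates folds, so their counts cannot be set against the neuronal ones. Of 10 neural progenitor genes 7 were lower in D8 embryoids and 0 higher, with sums of 456 to 634 in D8 embryoids, 230 to 413 in D7 embryoids, 1648 to 1720 in D8 controls and 1225 to 1334 in D7 controls. Mesenchyme genes were called higher in D8 embryoids for 9 of 10, with sums of 507 to 1030 in D8 embryoids, 209 to 268 in D7 embryoids, 19 to 21 in D8 controls and 18 to 21 in D7 controls, and 7 of the 10, Twist1, Col1a1, Col3a1 and Postn among them, were at 0 in all D8 controls. Cardiac muscle genes were higher for 8 of 8 tested, with sums of 1141 to 3081 in D8 embryoids, 530 to 1322 in D7 embryoids, 1 to 2 in D8 controls and 2 to 5 in D7 controls. Endothelial genes were higher for 10 of 10, with sums of 250 to 296 in D8 embryoids, 205 to 247 in D7 embryoids, 20 to 21 in D8 controls and 16 to 18 in D7 controls. Epithelial endoderm genes were higher for 10 of 10, with sums of 279 to 492 in D8 embryoids, 247 to 496 in D7 embryoids, 23 to 31 in D8 controls and 18 to 20 in D7 controls. Of the 6 pluripotency genes tested 2 were higher and 2 lower. The part of these cell types in the protocadherin differences was not tested.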

How the data were processed

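RNA sequencing values of 12 libraries in 4 groups of 3 were analysed. The authors deposited 1 table of whole numbers per gene and library, treated here as a score because the unit was inferred from the column sums as rounded TPM. Per the labels, reads (75 bp, single-end) were processed with STAR 2.6.1a, SAMtools 0.1.20, featureCounts and DESeq2 on mm10. Read depth is unknown, so no counting error was computed. A model of 4 group means was fitted to log2(value + 1) of 13751 genes (group mean above 1 in at least one group) in limma 3.58.1 (R 4.3.3, statmod 1.5.0) with trended, robust variances. Plots were made in matplotlib 3.10.9. Calls needed adjusted p values under 0.05 and log2 fold changes beyond -1 or 1.

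The members and gene lists were chosen with earlier results of these data known. Genes named with values were the C-type genes, the 4 highest of each array, called members (up to 10 per contrast), and of each list up to 3 called genes per direction and 2 not called. Other genes are named where said or to complete a count. Positions come from the RefSeq table of GRCm38.p6, which matched 58 of 58, and shared exon bases from GENCODE M21. The test was tried on simulated data made from the D8 control means, with changed genes drawn from those with a control mean above 2. Of 50 genes each changed by folds of 0.25, 0.333, 3 and 4, 44, 45, 47 and 48 were recovered. There were 4 calls among 12726 unchanged genes. Recovery of lower genes, many of the members among them, was not measured. The study describes replicates as independent samples, no 2 libraries held identical values, and r within groups was 0.978 to 0.990. Alternatives covered the pseudocount, filter, scaling, variances, minimum fold, libraries in the fit, a replicate block, leaving out each library and, added after the data were seen, the rounding.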

Additional observations from a re-analysis of the deposited data

Results flagged for a closer look

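The embryoid against control difference on the log2(value + 1) scale changed from D7 to D8 for 9 of the 46 clustered protocadherins tested. The rule was an adjusted p under 0.05 in the limma test of the change itself, and none passed the fold. All hold small whole numbers, and this test was not repeated with the rounding moved. In 7 the embryoids were further below the controls at D8. By the same rule 3.71% of all genes were lower and 5.37% higher. The change was -1 for Pcdha11, -0.86 for Pcdhb3, -0.89 for Pcdhb7, -1 for Pcdhb15, -0.36 for Pcdhb20, -0.44 for Pcdhga10 and -0.65 for Pcdhgc4. In 2 the difference was smaller at D8, by 0.74 for Pcdhac2 and 0.58 for Pcdhb4. Pcdhac2 differed by -0.52 at D8 and -1.26 at D7, and Pcdhb4 by -1 at D8 and -1.58 at D7. Pcdhb4 was at 1 in each D8 embryoid and 3 in each D8 control library, and at 0 and 2 in those of D7. Pcdha11 was listed at 0 in every embryoid library. The size of both changes therefore depends on the pseudocount.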

How the results depend on the processing

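At D8, 22 members were called in embryoids against controls, where 9.61% of all genes were lower. A pseudocount of 5 gave 2 (4.81% of all genes lower) and a filter above 5 gave 13 of 28 tested (9.7%). Median-of-ratios scaling gave 13 (7.26%), no minimum fold 42 (44.4%) and the rounding moved 11 (6.85%). Leaving out a library gave 17 to 22 (9.27 to 9.93%). At D7 the main count was 12, where 8.33% of all genes were lower. A pseudocount of 5 gave 1 (4.01% of all genes lower), no minimum fold 36 (44.8%) and the rounding moved 4 (5.77%). Without 1 library there were 9 to 13 (7.33 to 9.36%). Between days, embryoids had 0 called, where 2.53% of all genes were higher and 0.131% lower. A pseudocount of 0.5 called 3 higher (3.46% of all genes higher) and median-of-ratios scaling 2 higher (2.58%). No minimum fold called 12, 11 higher and 1 lower (16.1% and 4.52% of all genes). Without 1 library there were 0 to 1, the 1 being without replicate 3 of the D7 embryoids (2.81% of all genes higher). Controls had 3 called higher, where 2.53% of all genes were. Pseudocounts of 0.5 and 5 gave 6 and 0 (3.33% and 0.902% of all genes higher), and quantile scaling gave 0 (1.81%). No minimum fold gave 29 (17.4%), the rounding moved 0 (1.42%), and leaving out 1 library 3 to 4 (2.31 to 2.68%). The change of the difference had 0, where 1.61% of all genes were higher and 0.894% lower. A pseudocount of 0.5 gave 3, 1 higher and 2 lower (1.94% and 1.04% of all genes). Quantile scaling gave 3 lower (1.39% of all genes lower). No minimum fold gave 9, 2 higher and 7 lower (5.37% and 3.71%). There were 0 throughout when 1 library was left out. The cause was not tested except where fewer genes entered or the rule itself differed. The summed log2 ratios at D8 were -1.75 for Pcdha, -1.63 for Pcdhb and -0.62 for Pcdhg, and became -1.53, -1.41 and -0.41 with median-of-ratios scaling and -3.07, -1.77 and -0.85 without Pcdhac2, Pcdhb22 and Pcdhgc3; at D7 Pcdhg had -0.44, or -0.21 with median-of-ratios scaling. Without Pcdhac2 the Pcdha ratio at D7 could give no value, since 2 embryoid libraries summed to 0. With the rounding moved, 9 of the 46 D7 differences were positive and 30 negative, and of those past the adjusted p but not the fold 2 turned positive, Pcdhb9 (0.19) and Pcdhb14 (0.25). Of the 22 called members at D8, Pcdhb6 and Pcdhgc4 kept their call in every setting in which they were tested, and of the 12 at D7 Pcdhgc4 did; over all settings 444 of 497 values at D8 and 243 of 273 at D7 kept the call and none turned positive. Median-of-ratios scaling moved the median of all genes from -0.18 to 0.02 at D8 and from -0.19 to 0.01 at D7, and left all members called there lower. The replicate block changed no count (22, 12, 0, 3 and 0): the numbers do not pair the samples, since the correlations of same-numbered libraries ran from -0.19 to 0.08 over 18 pairs and 3 of the 18 were highest with their own number. Depth is unknown, and rounding limits every gene below about 5.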

Other observations

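Protein-coding genes within 200 kb of the arrays, a window chosen after the data were seen, gave 15 tested genes other than the clustered protocadherins. At D8 2 of the 15 were called lower and 1 higher, where 9.61% of all genes were lower and 10.2% higher. Hdac3, encoding a histone deacetylase and lying beyond the Pcdhg end, was at 203, 206 and 204 in D8 embryoids and 268, 277 and 279 in D8 controls (log2 fold change -0.42, SE 0.04), which missed the fold. Taf7, a subunit of the general transcription factor TFIID, lies between the Pcdhb and Pcdhg arrays and was at 16, 15 and 15 in D8 embryoids and 22, 22 and 21 in D8 controls (-0.47, SE 0.07), also not called. Gm37013, a gene model that starts inside the Pcdha array, was called lower, at 2, 1 and 0 in D8 embryoids and 5, 5 and 6 in D8 controls (-1.80, SE 0.37), and its reads could not be told apart from those of the genes it overlaps. Rell2 was at 1, 0 and 1 in D8 embryoids and 3 in each D8 control library (-1.33, SE 0.31). Arap3, a regulator of small GTPases, was at 11, 11 and 12 in D8 embryoids and listed at 0 in each D8 control library. The median log2 fold change of the 15 was -0.37 at D8, against -0.18 over all genes.

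Within an array the levels of the genes in embryoids and controls of the same day were compared by rank. Across the 22 Pcdhb genes, Spearman's rho between the group means was 0.881 at D8 and 0.845 at D7, and across the 22 Pcdhg genes 0.883 at D8 and 0.951 at D7. Across the 14 Pcdha genes, many of them at 0, it was 0.694 at D8 and 0.643 at D7. These are descriptions across genes of the same libraries, which share constant exons in the Pcdhg array and many tied whole numbers, and genes are not independent replicates.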
